A study of Homo sapiens with 12 samples.

Results

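Immediate early genes are switched on within minutes of a stimulus, from factors already present in the cell, and their RNAs are usually lost again soon after. The members followed here, chosen by symbol, are 10 of the 58735 genes in the count tables: the Fos family members FOS, FOSB and FOSL1, the Jun family members JUN, JUNB and JUND, the zinc finger factor EGR1, IER2 and IER3, and the stress factor ATF3. All 10 symbols had 1 identifier each in the tables. Their RNA was counted in HEK293T cells, an easily transfected line from human embryonic kidney that makes the SV40 large T protein. Of the 4 groups of 3 libraries, the first received 500 ng of a plasmid that expresses the microRNA miR-211 and the second 500 ng of a control plasmid. The third received a Dicer-substrate siRNA (1 nM) that targets U1, the small nuclear RNA that recognises 5′ splice sites, and the fourth a scrambled oligo. The titles of these latter groups also carry WT, which the labels do not explain, and those of the plasmid groups do not. Every library was made from total RNA taken 24 h after transfection, and none of the 12 came from untransfected cells. By GFP fluorescence at least 50% of cells took up DNA, so each plasmid library can mix cells with and without it. The labels do not say whether replicates were separate cultures, and the p-values describe how these libraries vary, which may be technical variation.

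Fos and Jun proteins pair to form AP-1, a factor that binds DNA at the sequence TGACTCA and its relatives. Growth factors reach FOS and EGR1 through the ERK kinases, which phosphorylate ELK-type partners of serum response factor (SRF) bound at CArG boxes. JUN is in part switched on by its own protein paired with ATF2, ATF3 is induced by stress through ATF4, and the RNAs of many such genes carry AUUUA repeats in the 3′ UTR that shorten their life.

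The start regions were searched for such motifs. The RefSeq promoter table (GRCh38.p14) held 8 of the 10 members, and the 250 bases before each start were searched on both strands for a CArG box, TGACGTCA, TGACATCA, TGACTCA and TATAAA. The 3 motifs that begin with TGAC are relatives, bound by AP-1 and CREB-type factors, but no match to one is a match to another. The stretches below are shown because each holds a CArG box or such a relative and lies outside annotated exons, and capitals mark the matches.
EGR1, chr5:138465354-138465425, plus strand: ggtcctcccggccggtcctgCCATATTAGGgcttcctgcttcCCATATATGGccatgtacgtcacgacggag
ATF3, chr1:212565264-212565311, plus strand: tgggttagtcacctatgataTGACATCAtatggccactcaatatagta
JUND, chr19:18281795-18281842, minus strand: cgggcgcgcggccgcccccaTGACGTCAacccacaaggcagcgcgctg
EGR1 held a pair of CArG boxes. At least 1 CArG box was found in 1.16% of 35116 promoters, and the share with a pair was not counted. The ATF3 stretch belongs to the more upstream of its starts and holds TGACATCA, which 2.37% of promoters had and which JUN also had, 67 to 60 bases before its start. JUND held TGACGTCA, found in 1.65% of promoters. FOS, FOSB and JUNB each had TATAAA 33 to 25 bases before the start, a motif in 10.7% of promoters, and no other motif of the search in that window, so the CArG box that FOS is known for was not matched there. IER2 had none of the motifs searched. These matches describe letters and do not show binding.

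Mature miR-211-5p, the product of the plasmid, is shown with its seed (bases 2 to 8, which pair with target RNAs) in capitals, beside a stretch of the FOSB 3′ UTR that holds the complementary AAAGGGA, in capitals as well. The microRNA is the RefSeq sequence (chr15:31065095-31065116, minus strand), and the UTR window is from GENCODE 29 on GRCh38.
miR-211-5p: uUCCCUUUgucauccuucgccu
FOSB, bases 580 to 609 after the stop codon: cccccttAAAGGGAattcgatgccccccta
The FOSB match (bases 587 to 593) is followed by a further A, the letter of the stronger class of site. Of 17940 coding genes with a 3′ UTR of at least 100 bases, 18.0% held the shorter match and 8.34% the longer one.

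Gene counts totalled 4515728 to 9290686 per library. U1 siRNA replicate 2 stood apart, with the lowest total and 44.5% of uniquely mapped pairs outside exons, against 14.5% to 25.5% in the other 11 libraries. The hairpin gene MIR211 had 1646 to 1997 counts in the miR-211 libraries and 1 to 9 in the other 9, though reads from the plasmid and the chromosome look alike. The U1 gene copies RNU1-1, RNU1-2, RNU1-3, RNU1-4 and RNVU1-18 had at most 34 counts per library each, and at most 13 in the U1 siRNA and scrambled oligo libraries. Single copies thus had too few counts to check the 30% reduction of U1 that the labels state. The copies were not pooled. Of 10 markers of embryonic kidney and of this line, 8 had counts in every library, led by NEFL and VIM. The kidney precursor markers PAX2 and LHX1 were near the limit of counting, and marker lists of fibroblasts and blood summed to at most 8.55 and 3.90 CPM in 11 libraries and to 19.9 and 11.1 in U1 siRNA replicate 2, where CPM is a gene's count scaled by the library's total of gene counts in the usual way. The melanocyte list, led by MITF, summed to at most 19.1 CPM in those 11 libraries and to 23.9 in U1 siRNA replicate 2. The part of that library in the results was not tested beyond leaving it out. The 2 strand columns of the tables were nearly equal (ratio 0.990 to 1.10), so reads on a gene and on its antisense partner cannot be told apart.

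The members were expressed at low to middling levels 24 h after transfection (plot of member levels by library). Per kilobase of exon, the mean over 12 libraries was 4.90 CPM for ATF3, 4.73 for JUN, 2.12 for JUND, 1.54 for FOS, 0.692 for EGR1, 0.589 for IER2, 0.301 for IER3, 0.150 for JUNB, 0.135 for FOSB and 0.114 for FOSL1. By this scale ATF3 and JUN lay above 76.5% and 76.0% of 19951 protein-coding genes, and FOSL1 above 27.3%. Most neighbours in the order overlapped: ATF3 exceeded JUN in 5 of 12 libraries, JUND exceeded FOS in 9 and EGR1 exceeded IER2 in 8. In 2 places neighbours were fully separated, since JUN exceeded JUND and FOS exceeded EGR1 in all 12 libraries with no overlap of their ranges. The 10 members together made up 42.0 to 67.9 CPM, of which ATF3 alone was 27.4% to 54.8%. Without ATF3 the sum lay between 28.1 and 38.0 CPM.

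**Figure D1:**
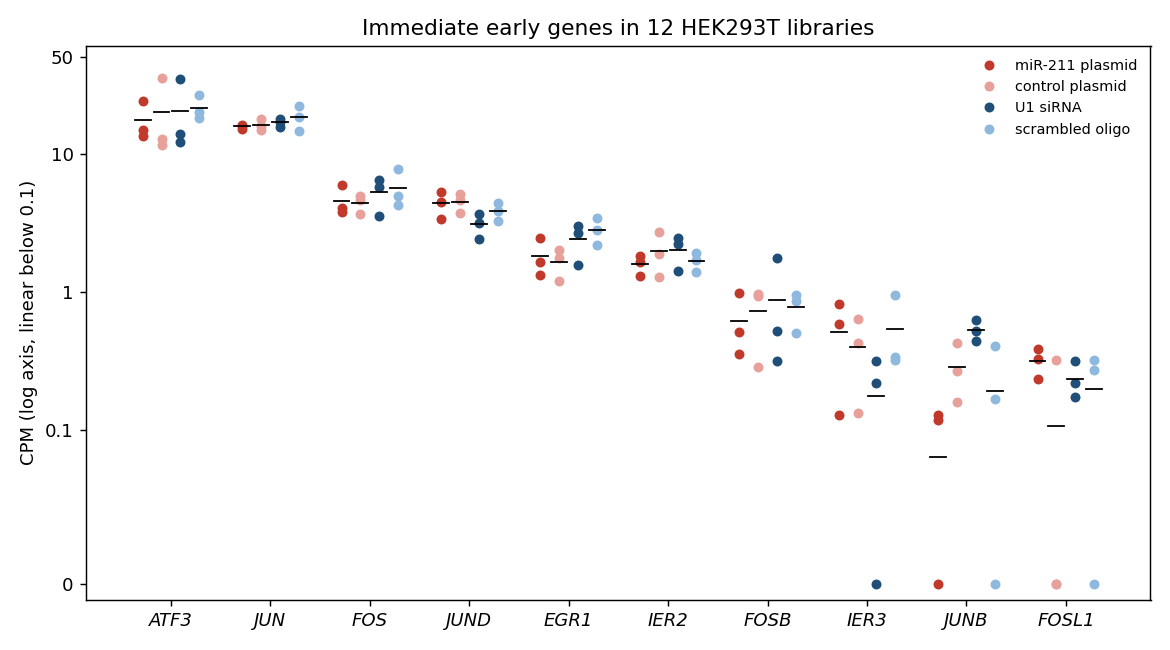
Level of each of the 10 members in each of the 12 libraries, in CPM on an axis that is linear near 0 and logarithmic above; each point is 1 library, coloured by group, and each short line is a group mean. ATF3 spreads from 11.5 to 35.4 CPM with the highest points in different groups, while JUN stays between 14.6 and 21.9 CPM.

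FOS, the founding AP-1 subunit, was the only Fos family member with at least 16 counts in every library. It had 3.79, 4.02 and 5.95 CPM with miR-211, 3.69, 4.60 and 4.94 with the control plasmid, 6.46, 3.54 and 5.75 under U1 knockdown and 4.91, 4.24 and 7.75 in the scrambled oligo libraries (replicates 1 to 3). The 4 groups overlapped, and the highest library was scrambled oligo replicate 3. FOSB, which forms AP-1 dimers as FOS does, had 2 to 8 counts per library. Its highest level, 1.77 CPM, was in U1 siRNA replicate 2, the library that stood apart. ERCC1 overlaps FOSB on the opposite strand without shared exon bases, so reads from ERCC1 introns there could be counted for FOSB. FOSL1 (FRA1), a Fos protein usually induced later than FOS, had 0 to 3 counts and none in 3 libraries.

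JUN was the steadiest member. Its levels were 15.2, 16.1 and 15.9 CPM with miR-211, 15.7, 17.7 and 14.8 with the control plasmid, 17.7, 17.1 and 15.7 under U1 knockdown and 21.9, 14.6 and 18.5 in the scrambled oligo libraries. The scrambled oligo group alone held both the highest and the lowest library, and it overlapped every other group. JUND, the Jun protein made in most resting cells, had 4.45, 5.32 and 3.36 CPM with miR-211, 4.66, 3.74 and 5.08 with the control plasmid, 3.15, 2.44 and 3.66 under U1 knockdown and 3.27, 4.40 and 3.87 in the scrambled oligo libraries. The lowest JUND value was in U1 siRNA replicate 2, the library that stood apart. JUNB, which often opposes JUN, had 0 to 4 counts per library, 21 in all. It shares 259 exon bases with HOOK2 on the opposite strand.

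EGR1, a zinc finger activator and the best known SRF target beside FOS, had 1.32, 1.65 and 2.46 CPM with miR-211 and 1.77, 2.01 and 1.20 with the control plasmid. Under U1 knockdown it had 3.00, 2.66 and 1.57 CPM, and its scrambled oligo libraries had 3.41, 2.20 and 2.80. The 3 scrambled oligo libraries all lay above the 3 control plasmid libraries, while miR-211 overlapped its control plasmid and U1 siRNA its scrambled oligo. IER2, a nuclear protein of the early growth response, stayed between 1.30 and 2.73 CPM, with both extremes among the control plasmid libraries. IER3 (IEX-1), a survival factor induced by stress, had 0 to 7 counts per library. Both overlap antisense genes, so their levels are uncertain: without strand, reads in the exon bases shared with AC011446.2 (946, IER2) and IER3-AS1 (359, IER3) are ambiguous and not counted. Over the 12 libraries IER2 had 145 counts without strand against 209 over both strand columns, and IER3 34 against 149. Where a count was 0, 3 counts is the limit, which is 0.323 to 0.523 CPM in these libraries, for counting error only.

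ATF3, a CREB-family factor induced by many stresses, had the widest range of the 6 members that passed the expression filter, 3.08-fold from lowest to highest library. It had 14.8, 13.4 and 24.1 CPM with miR-211 and 12.8, 11.5 and 35.4 with the control plasmid. Under U1 knockdown it had 34.7, 12.2 and 13.9 CPM, and the scrambled oligo libraries had 20.0, 18.1 and 26.5. The 2 highest libraries, control plasmid replicate 3 with 265 counts and U1 siRNA replicate 1 with 220 counts, belong to different groups, and each was more than 2-fold above both other libraries of its own group. The 4 groups overlapped and their means, 17.4 ± 5.80, 19.9 ± 13.4, 20.3 ± 12.5 and 21.5 ± 4.38 CPM (SD, n = 3 each, in the same order), differed by less than the SD of the control plasmid or U1 siRNA group.

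The biological coefficient of variation, edgeR's estimate of the relative spread between replicates beyond counting, was highest for ATF3 (plot of replicate spread). It was 0.271 in the miR-211 comparison, where the trend for genes of that abundance was 0.098, and 98.3% of tested genes had a lower value. Replicate 3 was the highest ATF3 library in both groups of that comparison. It was also the highest in the scrambled oligo group, while in the U1 siRNA group replicate 1 was. With the replicate number as a block, the standard error of the ATF3 fold change with miR-211 was 0.152 in place of 0.331 (log2 fold change -0.11, adjusted p 0.890, edgeR). The spread given is thus that without the pairing. In the U1 comparison it was 0.269 against a trend of 0.114 (percentile 89.0), and between the control transfections 0.250 against 0.092 (percentile 98.9). JUN, at nearly the same level, had 0.080, 0.123 and 0.108 against trends of 0.098, 0.117 and 0.093. JUND, EGR1 and IER2 lay below the trend in each comparison, at 0.087 to 0.245, and FOS had 0.126, 0.227 and 0.147 against trends of 0.128, 0.203 and 0.117.

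**Figure D2:**
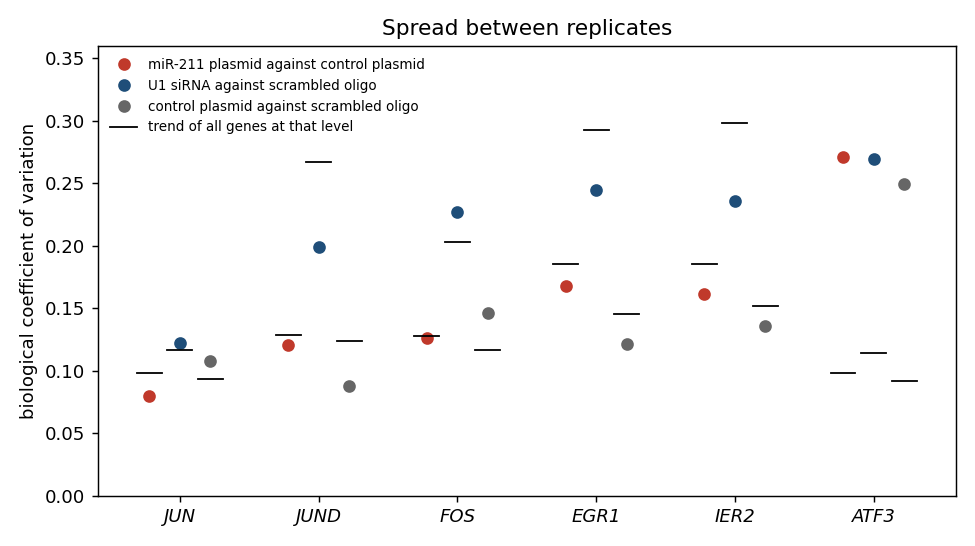
Biological coefficient of variation (y axis, no unit) of the 6 tested members in each of the 3 comparisons; points are the members' values and dashes the trend at the same abundance. ATF3 lies at 0.250 to 0.271 over trends of 0.092 to 0.114, and the other members lie near or under their dashes.

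Genes were ranked by how closely their levels went with ATF3 across libraries. Among 7119 protein-coding genes with a mean of at least 10 CPM, those with the highest Pearson r of log2 CPM with ATF3 over the 12 libraries were COX5A (0.93), a subunit of mitochondrial cytochrome c oxidase, CD55 (0.92), a surface inhibitor of complement, and PDIA3 (0.91), a protein folding enzyme of the endoplasmic reticulum. COX5A had 106 CPM in U1 siRNA replicate 1 and 79.1 in control plasmid replicate 3, against 21.9 to 63.5 in the other 10 libraries. PDIA3 had 155 and 125 CPM in those 2 libraries. Those 3 genes were picked as the highest of all genes searched, so their r values do not show that they track ATF3. For the same reason a set list cannot be ranked against them. For the stress list, on log2(CPM + 0.3), r with ATF3 was 0.65 for PPP1R15A, 0.40 for DDIT3, 0.34 for ATF4 and 0.25 for CHAC1. It was -0.01 for ASNS, -0.16 for TRIB3 and -0.22 for SESN2. These stress genes other than ATF4 had a mean under 10 CPM, where counting error can lower r. Of the other tested members FOS had 0.68, EGR1 0.21, JUN 0.08, JUND 0.02 and IER2 -0.24. These are descriptions over 12 libraries that share depth and handling, and the part of either in the ATF3 pattern was not tested. The genes most like JUN were TMEM128 (0.88), CAPZA1 (0.86) and SLC39A8 (0.86), and those most like EGR1 were SEMA3E (0.78), GABARAPL1 (0.76) and UTP18 (0.76).

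**Figure D3:**
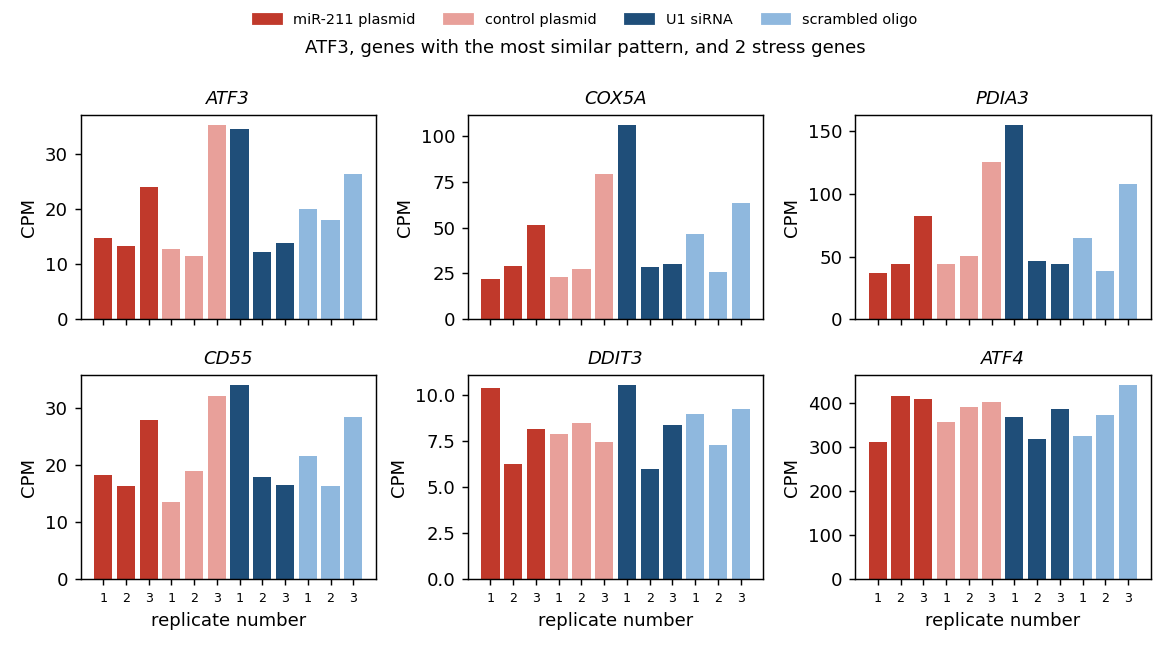
CPM of ATF3, the 3 genes most like it (COX5A, PDIA3 and CD55) and the stress genes DDIT3 and ATF4 in each library; each bar is 1 library, coloured by group, on a linear axis from 0. ATF3, COX5A, PDIA3 and CD55 all peak in U1 siRNA replicate 1 and control plasmid replicate 3, while ATF4 lies between 312 and 442 CPM throughout.

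Overexpression of miR-211 was compared with the control plasmid to ask which genes move with the microRNA. None of the 6 members that passed the expression filter (FOS, JUN, JUND, EGR1, IER2 and ATF3) was called at an adjusted p under 0.05, by edgeR's quasi-likelihood test, DESeq2 or limma-voom, and none had an unadjusted edgeR p under 0.05. Over all 12685 genes tested, 0.00788% were called, which is MIR211 alone, and 3.29% had an unadjusted p under 0.05. These fits leave out the pairing by replicate number, which this comparison showed by the rule given under processing. With that number as a block, 1 gene was called and 943 of the 12685 had an unadjusted p under 0.05 (edgeR). The fold changes below are without the block. The log2 fold change was 0.08 for FOS (SE 0.243, 95% interval -0.43 to 0.60), -0.003 for JUN (SE 0.131, interval -0.28 to 0.28) and -0.005 for JUND (SE 0.240, interval -0.52 to 0.51). EGR1 had a log2 fold change of 0.18 (SE 0.379, interval -0.63 to 0.99), from 1.66 ± 0.416 CPM with the control plasmid to 1.81 ± 0.585 with miR-211 (SD, n = 3 each). FOSB, with the seed match shown above, had 13 counts with miR-211 and 15 with the control plasmid, a ratio of totals of 0.804 (95% interval 0.352 to 1.81, counting error only). The adjusted p was 0.996 or above for each of the 6 tested members (edgeR). IER2 (-0.27, SE 0.375) and ATF3 (-0.18, SE 0.331) had the largest values in size. IER2 had -0.00076 without control plasmid replicate 1. ATF3 turned to 0.55 without control plasmid replicate 3 (adjusted p 0.972, edgeR). Of all 10 members only JUNB had groups that did not overlap, lower with miR-211, where 2.95% of 44268 genes with a count were lower and 3.48% higher without overlap. JUNB had 2 counts with miR-211 against 6, a ratio of 0.309 with an interval that includes 1 (0.031 to 1.73). Strand column 3 gave 0.229 and strand column 4 gave 0.703. A ratio about as far from 1 in the other direction was seen for FOSL1, whose groups overlapped. FOSL1 had 7 counts with miR-211 against 2, a ratio of 3.25 (0.618 to 32.0). IER3 had 11 against 8, a ratio of 1.28 (0.468 to 3.65).

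Knockdown of U1 was compared with the scrambled oligo. Again 0 of the 6 tested members were called by edgeR, DESeq2 or limma-voom, 0 had an unadjusted edgeR p under 0.05, and over all 12413 genes tested 0% were called and 1.58% had an unadjusted p under 0.05. JUND was at 3.85 ± 0.567 CPM with the scrambled oligo and 3.08 ± 0.614 with U1 siRNA, a log2 fold change of -0.31 (SE 0.313, interval -0.99 to 0.38). JUN had -0.14 (SE 0.165, interval -0.50 to 0.22), FOS -0.10 (SE 0.311), EGR1 -0.24 (SE 0.371), IER2 0.27 (SE 0.381) and ATF3 -0.07 (SE 0.321). Each of these 6 values was smaller in size than its standard error. ATF3 depended on single libraries: without U1 siRNA replicate 1 its log2 fold change was -0.74 (adjusted p 0.998, edgeR), and without U1 siRNA replicate 2 it was 0.18. Groups did not overlap for 2 of the 10 members, JUNB higher and IER3 lower, where 3.04% of 46789 genes with a count were higher and 1.52% lower without overlap. JUNB had 9 counts against 4, a ratio of 3.05 (0.852 to 13.6), and IER3 3 against 12, a ratio of 0.339 (0.061 to 1.26), and both intervals include 1. Single libraries moved both: the JUNB ratio was 8.24 without scrambled oligo replicate 1 and 1.79 without scrambled oligo replicate 3. The IER3 ratio was 0.183 without U1 siRNA replicate 1, 0.519 without U1 siRNA replicate 3 and 0.549 without scrambled oligo replicate 1, and strand column 4 gave 0.992. In strand column 3, IER3 had 5, 2 and 3 counts with U1 siRNA against 10, 6 and 13 with the scrambled oligo.

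The test of the difference between the miR-211 effect and the U1 effect called none of the 6 members either (unadjusted p 0.344 to 0.843, edgeR, 12 libraries), where 0.0074% of 13520 genes were called.

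**Figure D4:**
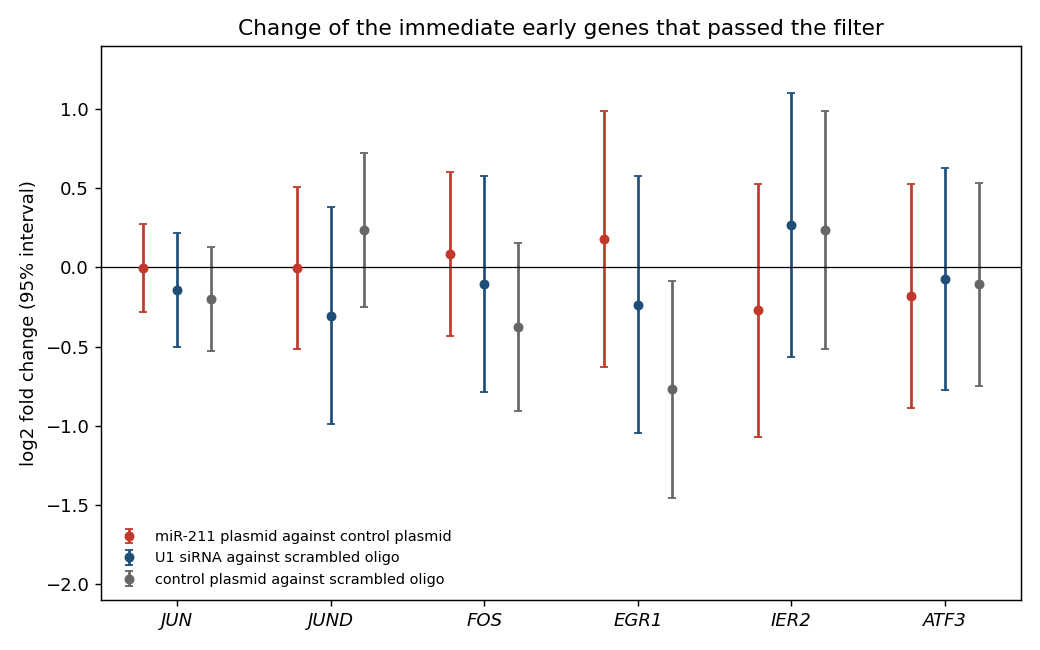
Log2 fold change of the 6 tested members in the 3 comparisons, with 95% intervals from the edgeR fit without a replicate block; the line at 0 marks no difference. All intervals cross 0 except that of EGR1 between the control transfections, which runs from -1.46 to -0.08.

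The control plasmid and the scrambled oligo are both control transfections, and the difference between them cannot be told apart from other differences between the 2 experiments. The comparison shares its libraries with the 2 above. No member was called by edgeR or limma-voom, and DESeq2 gave the 6 members no adjusted p (unadjusted p 0.106 for EGR1), where edgeR called 0% of 12650 genes and 7.79% had an unadjusted p under 0.05. EGR1 had the lowest p of the members: it was 1.66 ± 0.416 CPM with the control plasmid and 2.80 ± 0.602 CPM with the scrambled oligo (SD, 3 libraries each). Its log2 fold change was -0.77 (SE 0.322, unadjusted p 0.030, adjusted p 0.593, edgeR). It was also the only 1 of the 10 members whose groups did not overlap, lower with the control plasmid, where 6.14% of 44879 genes with a count were lower and 2.76% higher without overlap. FOS had -0.38 (SE 0.248; -0.054 without scrambled oligo replicate 3), JUN -0.20 (SE 0.154; -0.033 without scrambled oligo replicate 1), JUND 0.24 (SE 0.228), IER2 0.24 (SE 0.353) and ATF3 -0.11 (SE 0.301). Without control plasmid replicate 3, ATF3 had -0.83 (adjusted p 0.135, edgeR). The median log2 fold change of the 6 tested members was -0.004, -0.12 and -0.15 in the 3 comparisons, against 0.008, 0.015 and -0.004 over all genes tested.

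No gene of the wider pathway lists was called. Of 28 further immediate early response genes, 17, 15 and 15 were tested with miR-211, with U1 siRNA and between the controls, and edgeR called none of them. Their medians were -0.01, 0.07 and 0.14 on the log2 scale, and 2, 0 and 0 had an unadjusted p under 0.05, where 3.29%, 1.58% and 7.79% of all genes did. The 2, named after their values were seen, were NR4A2, a nuclear receptor (log2 fold change 1.36 with miR-211, unadjusted p 0.00449), and RHOB, a small GTPase (-0.48, p 0.0258), both with an adjusted p of 0.996 (edgeR). MYC, the growth regulator, had -0.03 with miR-211 and 0.05 with U1 siRNA, and MCL1, a survival protein, -0.18 and 0.09. Of 19 kinases and factors that switch the response on, 18 were tested in each comparison, none was called, and the medians were -0.06, 0.01 and 0.02. Here 0, 0 and 1 had an unadjusted p under 0.05. The 1, named after its value was seen, was the kinase RPS6KA5 between the controls (log2 fold change -0.27, unadjusted p 0.0467, adjusted p 0.639, edgeR). ELK4, an SRF partner, had -0.17 with miR-211 and -0.11 with U1 siRNA, and RPS6KA3, a kinase downstream of ERK, had 0.13 and -0.16. Of 13 feedback inhibitors 8 were tested and none was called, with medians of -0.20, 0.005 and 0.20, and 1, 0 and 2 had an unadjusted p under 0.05. Named after their values were seen, SPRY2, an inhibitor of growth factor signalling, had -0.88 with miR-211 (unadjusted p 0.0092, adjusted p 0.996, edgeR), and DUSP2, a MAP kinase phosphatase, 0.83 between the controls (unadjusted p 0.0209, adjusted p 0.557). Among them ZFP36L2, which binds AU-rich RNA and speeds its decay, had 47.7 ± 0.493 CPM with the control plasmid and 38.2 ± 2.37 CPM with the scrambled oligo (SD, 3 libraries each). Its log2 fold change was 0.33 (unadjusted p 0.00235, adjusted p 0.438, edgeR). Of 13 AP-1 partners 8, 7 and 7 were tested and none was called, and ATF2, which pairs with JUN, had 0.06, -0.09 and -0.11. Of 8 stress genes 7 were tested in each comparison and none was called, and ATF4 had 0.01, -0.09 and 0.02. No tested AP-1 partner or stress gene had an unadjusted edgeR p under 0.05.

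Some members have transcript features that the choice of genes did not use. In 5 of the 10 (JUN, JUNB, JUND, IER2 and IER3) the longest coding transcript had 1 exon, as in 5.91% of 19494 coding genes. Of these, JUND, IER2 and IER3 also have an annotated coding transcript with 2 exons, and only JUN and JUNB have no intron. The instability pentamer, ATTTA in DNA letters, occurred 6.64 times per kilobase of 3′ UTR in IER3, 6.20 in FOS and 4.0 in JUNB, more than in 95.8%, 94.7% and 84.2% of genes. The median of all genes was 1.61, and ATF3 (2.45) and JUN (2.33) lay above it. FOSL1, JUND (1.47), FOSB (1.39) and EGR1 (0.810) lay below it, and IER2 had none. The members' transcripts were rich in GC, from 50.8% in ATF3 and 52.6% in FOS to 64.9% in JUNB and 69.7% in JUND, all above the median of 49.4%. In these libraries levels were lower at higher GC content: with all coding genes split by GC into 5 equal classes, the median was 2.35 CPM per kilobase in the lowest class and 0.156 in the highest, where 4 members lie (plot of level by GC content). The 6 members that passed the expression filter lay above the median of their own class, and the other 4 below it. That filter selects on counts, so this split is in part built in. JUNB, at 0.150, lay just under its class median of 0.156, and reads that IER3 shares with its antisense gene were not counted. The part of GC content in the members' levels was not tested.

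**Figure D5:**
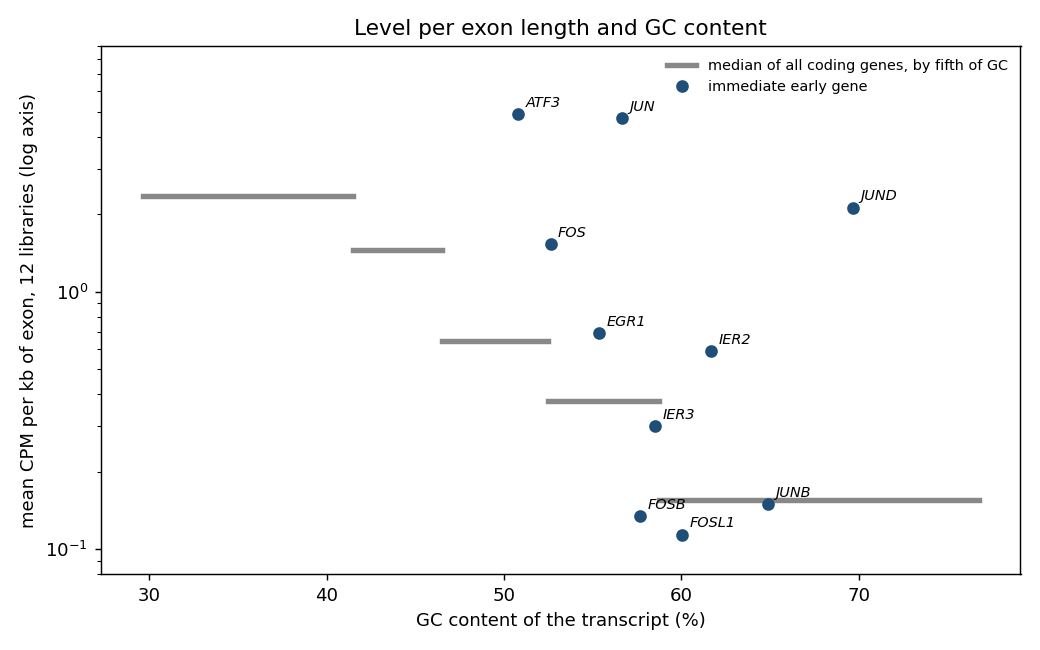
Mean level over 12 libraries (CPM per kilobase of exon, log axis) of the 10 members against the GC content of the longest coding transcript; the lines are the medians of all coding genes in 5 equal classes of GC content. The medians fall from 2.35 to 0.156, and ATF3, JUN, JUND, FOS, EGR1 and IER2 lie above the line of their class.

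The genes lie on 6 chromosomes (GENCODE 29, GRCh38). JUN spans bases 58780788 to 58784327 and ATF3 212565334 to 212620777 of chromosome 1, EGR1 138465490 to 138469315 of chromosome 5, IER3 30743199 to 30744554 of chromosome 6 and FOS 75278774 to 75282230 of chromosome 14. FOSL1 spans 65892049 to 65900573 of chromosome 11. Chromosome 19 carries the other four: JUNB (12791496 to 12793315), IER2 (13150415 to 13154908), JUND (18279760 to 18281622) and FOSB (45467995 to 45475179). ATF3 is by far the longest, 55444 bases with 4040 bases of exon, and JUN and JUNB have no annotated intron.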

How the data were processed

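RNA-seq read counts per gene, deposited for each of 12 libraries, were used as the authors left them, with no normalization. Per the submitters' processing notes the aligner was STAR 2.7.2a with GRCh37 or hg19, while all 58735 gene identifiers are those of GENCODE 29 on GRCh38. The build used for alignment is thus unclear, and every coordinate printed is from GENCODE 29 or RefSeq on GRCh38. RNA selection and strandedness are not given in the sources used here, and the unstranded column was used. CPM is a count over the total of gene counts. Tests were edgeR 4.0.16 quasi-likelihood fits (R 4.3.3, TMM scaling, filterByExpr with a minimum count of 10 and total of 15, Benjamini-Hochberg over all genes tested, threshold 0.05) on the 6 libraries compared, and on 12 for the difference of effects. They were tested on simulated data. Members below the filter are given as ratios of total counts with exact 95% intervals. Alternatives were DESeq2 1.42.0, limma 3.58.1 (voom), other scalings, no filter, all libraries in 1 fit, strand columns, a replicate block and leaving out each library. No replicate pair matched within sampling noise (chi-square over its degrees of freedom was 1.95 to 7.03), so none looked like a library deposited again. Same-numbered libraries of the miR-211 comparison deviated together (correlations 0.248, 0.305 and 0.239 over genes), which by the rule of over 0.1 for each pair counts as paired. The block called none of the members in any comparison. The members and gene lists were chosen with earlier results of these data known. Named beside the members were, in each list, the 2 highest and 2 lowest fold changes among genes of at least 10 CPM, of which some are printed, and the 3 genes most like JUN, EGR1 and ATF3. A result on a sequence is not reported here.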

Additional observations from a re-analysis of the deposited data

Results flagged for a closer look

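JUNB counts lay in opposite directions in the 2 comparisons. All 3 miR-211 libraries lay below all 3 control plasmid libraries (ratio of totals 0.309, interval 0.031 to 1.73), where 2.95% of genes with a count were lower without overlap. All 3 U1 siRNA libraries lay above all 3 scrambled oligo libraries (ratio 3.05, interval 0.852 to 13.6), where 3.04% of genes were higher without overlap. The difference between the 2 ratios was not tested, since JUNB had 0 to 4 counts per library and was below the expression filter. Both intervals, which cover counting error only, include 1. Strand column 3 gave 0.229 and strand column 4 gave 0.703 for the first ratio. The second was 8.24 without scrambled oligo replicate 1 and 1.79 without scrambled oligo replicate 3. FOSL1, also below the filter, had a ratio of 3.25 with miR-211 (interval 0.618 to 32.0), with groups that overlapped.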

How the results depend on the processing

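No member was called under any alternative that gave it an adjusted p. DESeq2 gave none between the controls, and the strand columns left 3 to 5 members tested. Signs of small fold changes moved. With limma-voom JUN had 0.0037 with miR-211. With strand column 3, JUN had 0.036 and IER2 0.29 with miR-211, and ATF3 had 0.031 with U1 siRNA and 0.061 between the controls. With strand column 4, FOS had -0.040 and JUND 0.37 with miR-211, and JUND had -0.072 between the controls. Leaving out 1 library at a time, the log2 fold change with miR-211 ranged from -0.49 to 0.55 for ATF3, -0.10 to 0.36 for EGR1, -0.15 to 0.19 for FOS, -0.064 to 0.085 for JUN, -0.20 to 0.17 for JUND and -0.48 to -0.00076 for IER2. With U1 siRNA it ranged from -0.74 to 0.18 for ATF3, -0.28 to 0.20 for FOS and -0.27 to 0.019 for JUN. Between the controls it ranged from -0.83 to 0.17 for ATF3, -0.038 to 0.45 for IER2, -0.53 to -0.054 for FOS and -0.33 to -0.033 for JUN. The cause was not tested. EGR1 between the controls ranged from -0.95 to -0.57 and was not tested with the strand columns. Over all genes, calls between the controls were 0 by edgeR, 38 by DESeq2, 3 by limma-voom, 30 with the replicate block, 51 with no filter and 21 without scrambled oligo replicate 3. In the miR-211 comparison there were 1 or 2, and with U1 siRNA 0 in all but the fit with no filter, which called 7. Same-numbered libraries of the U1 and control comparisons did not meet the rule of over 0.1 for each pair (correlations -0.048 to 0.175). They were not counted as paired, which does not show that they are unpaired. With 34 or fewer counts in all, FOSL1, JUNB and IER3 could show only large differences.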

Other observations

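Of the 28 further immediate early genes, 3 exceeded ATF3 per kilobase of exon. KLF10, a TGF-beta induced repressor, had a mean of 35.5 CPM per kilobase of exon over the 12 libraries, MYC 29.1 and MCL1 7.38, against 4.90 for ATF3. KLF10 ranged from 122 to 187 CPM and MYC from 64.0 to 110 CPM.

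ATF3 ranked 13 of 7119 protein-coding genes of at least 10 CPM by the SD of log2(CPM + 0.3) over the 12 libraries, and JUN ranked 2468. The genes ahead of it were chosen after their values were seen. FTH1, the heavy chain of ferritin, came first, with 82.6 CPM in U1 siRNA replicate 1, 22.2 in control plasmid replicate 3 and 4.78 to 16.2 in the other 10 libraries. PFN1, an actin binding protein, had 197 and 88.4 CPM in those 2 libraries and 35.7 to 73.7 in the others. Both genes have near-identical pseudogene copies, so their counts of uniquely mapped reads are uncertain. CDKN2A, a cell cycle inhibitor, had 53.1 and 26.5 CPM in those 2 libraries, against 8.73 to 22.3 in the others. Among the 10 genes that varied most, Pearson r with ATF3 ran from 0.29 (HIST1H2AH) to 0.93 (COX5A). Both the ranking and r come from the same 12 libraries, so these values do not show that the genes track ATF3. The 2 libraries had 6343000 and 7484566 gene counts, and the part of depth was not tested.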
